A study of Mus musculus with 6 samples.

Results

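NF-κB is a family of dimeric transcription factors that switch on genes of immune activation and cell survival. 10 genes make up the group described here, the subunit genes Rel, Rela, Relb, Nfkb1 and Nfkb2 and the genes of the inhibitory or regulatory IκB proteins, Nfkbia, Nfkbib, Nfkbie, Nfkbiz and Bcl3. They were chosen by symbol: every probe set (a set of short oligonucleotides on the array that reads 1 transcript region) whose annotation gave one of these symbols and no other was taken. 9 of the 10 genes had a probe set, 18 probe sets in all, among 18193 genes and 45037 probe sets. Nfkb1 was not analysed here. Nfkbia had 5 probe sets, Nfkbiz had 3, Nfkb2, Nfkbib and Nfkbie had 2 each, and Rel, Rela, Relb and Bcl3 had 1 each.

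Expression was measured on 6 Affymetrix arrays of C57BL/6 mouse cells, 3 of antibody-secreting plasma cells and 3 of B cells. Plasma cells came from the bone marrow, taken 7 days after a booster dose of the protein antigen KLH, enriched with beads against CD138 and sorted as B220- CD138+, with 50000 to 70000 cells per array. B cells were naive cells of the spleen sorted as B220+ CD23+, with 2000000 to 3000000 cells per array. Tissue, boost, bead enrichment and cell number differed together with the cell type and cannot be told apart from it. Ages, and whether an array held 1 animal or a pool, are not stated in the labels, so the p-values cover the spread of these 6 samples, part of which may be technical.

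In resting B cells NF-κB dimers are held in the cytoplasm by IκB proteins. In the canonical pathway, antigen receptor, Toll-like receptor or CD40 signals act through the IKK complex to destroy IκB and release dimers that hold Rel (c-Rel) or Rela (p65). In the alternative pathway, signals such as those of the BAFF receptor stabilise the kinase NIK, and the p100 product of Nfkb2 is processed to p52, which pairs with Relb. Several members of the family, Nfkbia first among them, are known to be NF-κB target genes themselves, which gives the system negative feedback.

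The promoters of 5 members are shown because they hold, or lack, a κB-like sequence of the kind through which NF-κB reads its target genes. Each is the RefSeq window of build GRCm38.p6 from 250 bases before to 50 bases after an annotated start site, written on the strand of the gene. The motif searched was GGGNNTTNCC, with N any base, on both strands, and overlapping matches were counted separately. Capitals mark its matches.
Rel (chr11:23770920-23771219, minus strand): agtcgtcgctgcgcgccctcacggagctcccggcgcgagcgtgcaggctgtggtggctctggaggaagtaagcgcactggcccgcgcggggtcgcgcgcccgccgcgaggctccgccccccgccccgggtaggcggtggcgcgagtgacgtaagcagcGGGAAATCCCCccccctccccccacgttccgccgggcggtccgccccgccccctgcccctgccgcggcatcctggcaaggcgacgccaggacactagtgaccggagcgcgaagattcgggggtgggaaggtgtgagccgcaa
Bcl3 (chr7:19822706-19823005, minus strand): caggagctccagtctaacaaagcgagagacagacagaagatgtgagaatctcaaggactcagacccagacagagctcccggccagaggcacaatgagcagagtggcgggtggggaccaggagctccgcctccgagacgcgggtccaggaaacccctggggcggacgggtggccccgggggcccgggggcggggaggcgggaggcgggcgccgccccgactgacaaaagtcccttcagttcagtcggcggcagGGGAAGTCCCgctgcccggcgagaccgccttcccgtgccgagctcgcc
Nfkb2, first of 3 windows (chr19:46304487-46304786, plus strand): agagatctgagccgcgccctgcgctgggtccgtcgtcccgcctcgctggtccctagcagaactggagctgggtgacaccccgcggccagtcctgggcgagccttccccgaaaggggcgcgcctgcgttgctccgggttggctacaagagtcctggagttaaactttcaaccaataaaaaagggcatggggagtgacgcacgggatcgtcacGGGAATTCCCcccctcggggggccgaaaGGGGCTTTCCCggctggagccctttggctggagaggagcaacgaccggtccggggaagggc
Nfkbia (chr12:55492598-55492897, minus strand): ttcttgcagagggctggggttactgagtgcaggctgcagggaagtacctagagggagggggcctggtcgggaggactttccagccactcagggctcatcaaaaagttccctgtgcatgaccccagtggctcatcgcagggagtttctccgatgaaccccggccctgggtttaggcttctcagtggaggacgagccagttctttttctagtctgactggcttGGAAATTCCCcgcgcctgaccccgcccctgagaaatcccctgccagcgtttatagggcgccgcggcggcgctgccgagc
Nfkbie (chr17:45555450-45555749, plus strand): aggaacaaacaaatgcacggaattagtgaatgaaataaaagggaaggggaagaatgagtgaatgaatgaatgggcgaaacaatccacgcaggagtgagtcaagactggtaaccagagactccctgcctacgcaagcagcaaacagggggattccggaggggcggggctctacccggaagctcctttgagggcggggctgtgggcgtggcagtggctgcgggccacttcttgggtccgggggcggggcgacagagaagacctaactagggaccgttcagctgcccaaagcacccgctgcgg
7 members had such a window, and the motif was found in 4 of them, Rel, Bcl3, Nfkb2 and Nfkbia. The windows of Rela, Nfkbib and Nfkbie held no match. Over 32544 distinct mouse promoter windows of the same length, 4.78% held it. A match is a description of letters in this window and shows neither binding nor a cause of any difference in level.

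B cell array 1 stood apart from the other arrays. Its correlation with B cell arrays 2 and 3 over probe sets was 0.933 and 0.926, where arrays 2 and 3 had 0.992 with each other, and pairs of plasma cell arrays had 0.985 to 0.989. The summed intensity of 14 measured T and NK cell markers (of 16 listed) was 2569 to 5719 on the plasma cell arrays, 7158 on B cell array 1 and 1451 and 1516 on B cell arrays 2 and 3. For 10 measured granulocyte markers (of 12) it was 8794 to 21081 on the plasma cell arrays, 12944 on B cell array 1 and 2866 and 1847 on B cell arrays 2 and 3. Erythroid markers (7 of 10) summed to 2160 to 4599 on plasma cell arrays and 3678 to 5006 on B cell arrays, most of it Tfrc (1612 to 4377 and 3538 to 3807). On B cell arrays 1, 2 and 3, Slc4a1 was at 1158, 18.4 and 37.3, and Hba-a1 at 12.8, 21.1 and 33.9. Monocyte and macrophage markers (10 of 10) summed to 2416 to 3449 on plasma cell arrays and 3893 to 6020 on B cell arrays. On the B cell arrays most of it was Lyz2 (2529 to 4128). The list was split: 2 were called higher in plasma cells (Cd68 and Cd5l) and 3 lower (Lyz2, Adgre1 and Csf1r), with a median log2 fold change of 0.56. Dendritic cell markers (7 of 8) summed to 5601 to 6716 and 1499 to 1746, most of it Bst2 (4804 to 5453 and 786 to 1131). Of these 7, Bst2 and Flt3 were called higher in plasma cells and Zbtb46 lower. Stromal and endothelial markers (8 of 8) summed to 1129 to 1213 and 1411 to 1711. On the B cell arrays most of it was Pecam1 (1128 to 1221), which was called lower in plasma cells, while Cdh5 was called higher. No marker had a value of 0 on any array, but each array held 386 to 684 probe sets at exactly 1, so this does not show detection. Some markers lay within background on most arrays, such as Trat1, over background on 0 plasma cell arrays and 1 B cell array. Xist, an RNA of female cells picked once its values were known, was at 8070 to 8702 on the plasma cell arrays, 8408 on B cell array 1 and 30.8 and 18.1 on B cell arrays 2 and 3. Kdm5d, a gene of the Y chromosome picked likewise, was at 3.00 to 8.84 on the plasma cell arrays and 3.57 on B cell array 1. On B cell arrays 2 and 3 it was at 1507 and 1576. Without array 1 the differences in Xist and Kdm5d run with the cell type. In every fit without that array, sex and cell type therefore cannot be told apart. The fit with all arrays is unbalanced as well, since B cell arrays 2 and 3 differed from every plasma cell array in both genes. There, sex and cell type are separated only through B cell array 1, the array that stood apart. The part of sex in the calls with all arrays was not tested. Values of the members and counts of the gene lists are given with and without B cell array 1. The labels held against their markers: of 7 plasma cell markers 7 were called higher in plasma cells, and of 7 measured follicular B cell markers (of 9) 7 were called lower. Among them Sdc1, which encodes CD138, was at 12664 to 13218 in plasma cells and 969 to 1183 in B cells, and Fcer2a, which encodes CD23, at 44.0 to 52.0 and 5061 to 6734. The cells were sorted on these proteins, so these 2 genes are no independent check. The same holds for Ptprc, counted among the 7 follicular markers, whose product B220 was sorted on. Of markers not sorted on, Prdm1 was at 5105 to 5669 in plasma cells and 83.9 to 96.3 in B cells, and Cr2 at 76.2 to 88.6 and 5979 to 7445.

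In plasma cells 4 NF-κB genes were lower than in B cells, with the widest gap at Rel. Of the 9 measured genes, 0 were called higher and 4 were called lower in plasma cells: Rel, Bcl3, Relb and Nfkbie. A call means an adjusted p of at most 0.05 in limma, with Benjamini-Hochberg adjustment over all 18193 genes. Of all genes, 17.6% were called higher and 12.3% lower. At an unadjusted p under 0.05, limma gave 0 members higher and 5 lower, where 22.0% of all genes were higher and 18.1% lower by that rule. The median log2 fold change of the 9 genes was -0.58, against -0.06 over all genes. In 6 of the 9 genes the 3 plasma cell arrays and the 3 B cell arrays did not overlap, which was so for 47.8% of all genes. The plasma cell arrays were the lower in 5 of these, Rel, Relb, Nfkb2, Nfkbie and Bcl3 (22.4% of all genes), and the higher in Nfkbiz (25.4% of all genes). In the fit over all probe sets 0 of the 18 were called higher and 3 lower, 1 each of Rel, Nfkbie and Bcl3, where 13.4% of all probe sets were called higher and 12.8% lower. Without B cell array 1, 2 of the 18 were called higher and 9 lower, where 18.1% and 20.7% of all probe sets were. Without B cell array 1, 7 members were called lower and 0 higher, where 21.1% of all genes were called lower and 22.7% higher. In bulk samples such as these, fewer cells of a type that express a gene and less RNA per cell cannot be told apart.

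**Figure D1:**
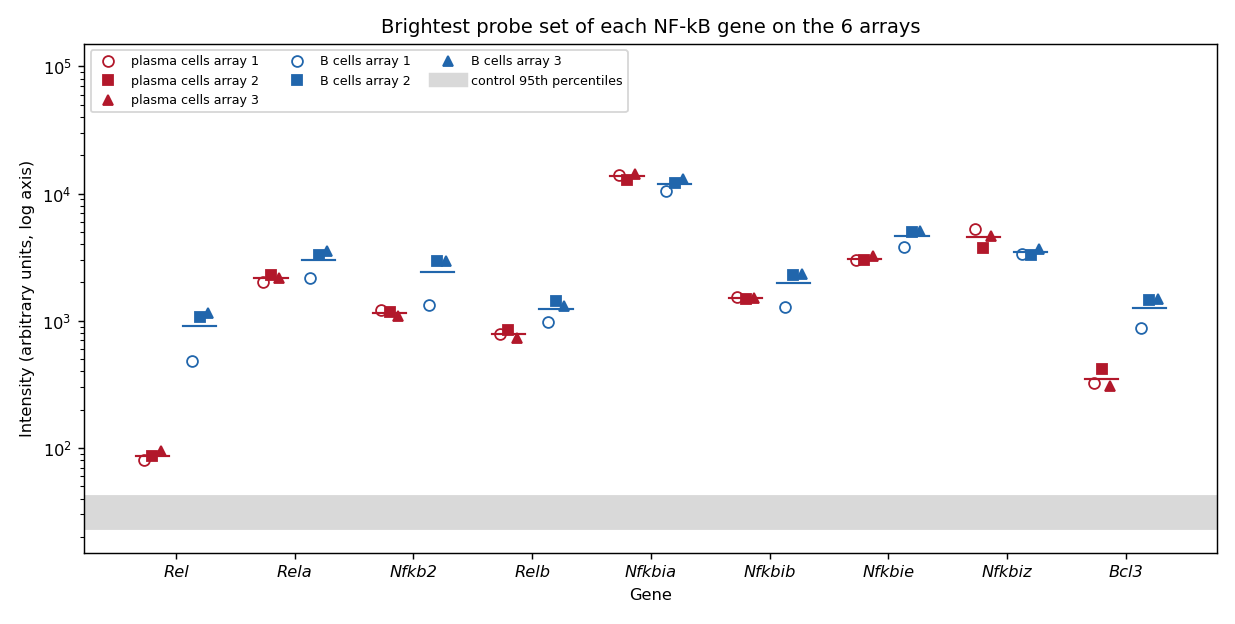
Intensity on a log axis of the brightest probe set of each of the 9 genes. Symbols are single arrays, plasma cells in red to the left of B cells in blue, horizontal bars are group means, and the grey band spans the 95th percentiles of the bacterial control probe sets on the 6 arrays (23.0 to 41.8). The gap between groups is widest for Rel, and the open blue circle, B cell array 1, lies below the other B cell arrays for most genes.

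Rel encodes c-Rel, a canonical subunit on which proliferation of activated B cells depends. It was at 80.5, 86.6 and 94.4 in plasma cells and at 485, 1066 and 1160 in B cells (intensity, arbitrary units). Every plasma cell array lay above its own background level, the 95th percentile of 27 bacterial control probe sets (25.3 to 41.8 on the plasma cell arrays), and far under every B cell array. On the scale of log2(intensity + 16), used for all fold changes, Rel fell by 3.06 (SE 0.34, 8.35-fold, adjusted p = 0.00135, limma), and 0.748% of all genes had a lower fold change. Without B cell array 1 the log2 fold change was -3.45 ± 0.10 (SE), with adjusted p = 7.16e-05. The call held under the 16 alternatives run, with adjusted p up to 0.00985.

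Rela encodes p65, the most widely expressed canonical subunit. It was at 2028, 2285 and 2187 in plasma cells and at 2164, 3287 and 3544 in B cells. The groups overlapped because B cell array 1 lay among the plasma cell arrays. Its log2 fold change was -0.44 ± 0.21 (SE, adjusted p = 0.186, limma), which did not pass the test with all arrays. With that array left out it was -0.65 ± 0.10 with adjusted p = 0.00520, so that array decided the call.

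Of the alternative pathway, Nfkb2 encodes p100, the precursor of p52. It was at 1209, 1182 and 1088 in plasma cells and at 1331, 2967 and 2932 in B cells. The groups did not overlap, although B cell array 1 lay close to the plasma cell arrays. The log2 fold change was -0.96 ± 0.33 (SE, adjusted p = 0.0795, limma), and -1.34 ± 0.09 with adjusted p = 0.000447 without B cell array 1. The dimmer probe set of Nfkb2 was at 495, 559 and 501 in plasma cells and at 557, 1307 and 1465 in B cells, the same pattern, with a log2 fold change of -0.96 ± 0.37 in the fit over all probe sets (adjusted p = 0.115). Probe sets of a gene read the same RNA and are not replicates.

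Relb encodes the subunit that pairs with p52. It was at 784, 854 and 738 in plasma cells and at 980, 1422 and 1317 in B cells, with no overlap. Relb fell by 0.62 (SE 0.18, 1.54-fold, adjusted p = 0.0434, limma). That call was marginal: in the fit over all probe sets the same values had an adjusted p of 0.0525, and leaving out any 1 array other than B cell array 1 gave 0.0962 to 0.131. Median centring gave 0.303, the replicate block 0.0791 and an added constant of 1 0.0576 (limma, adjusted p). Without B cell array 1 the log2 fold change was -0.78 ± 0.10, with adjusted p = 0.00348.

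**Figure D2:**
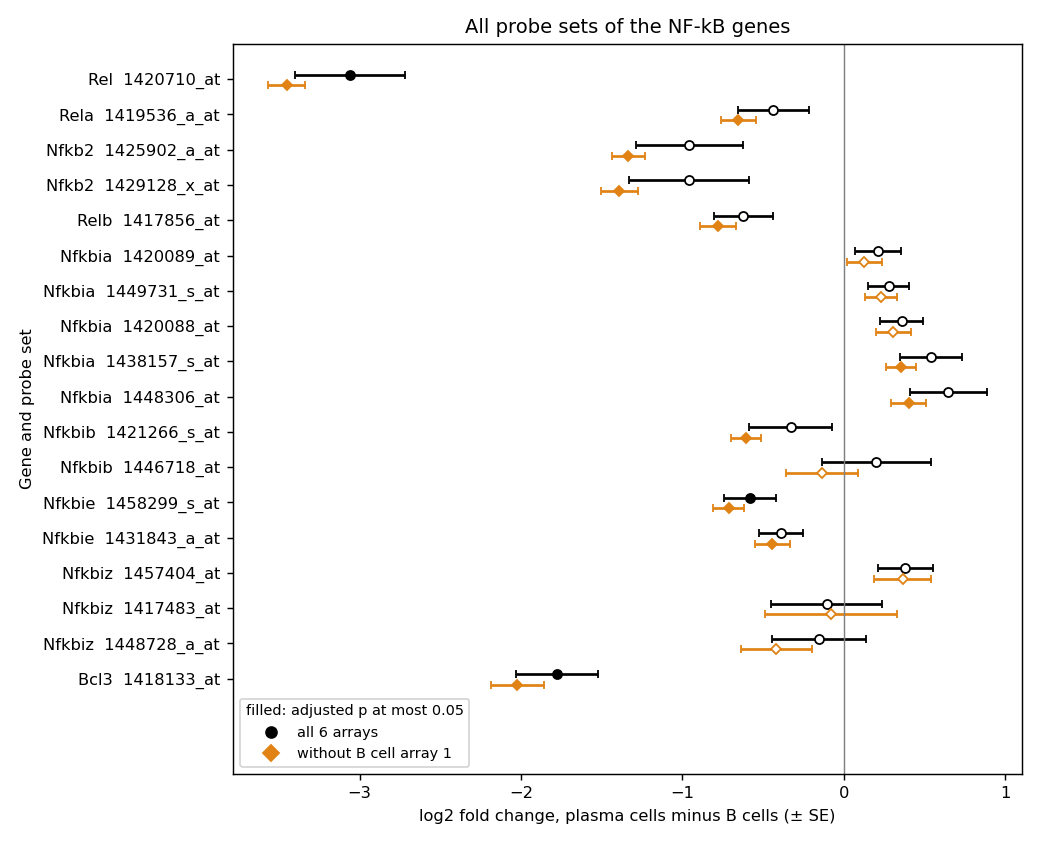
Log2 fold change, plasma cells minus B cells, of the 18 probe sets, with bars for the standard error. Black circles use all 6 arrays and orange diamonds leave out B cell array 1, and filled symbols have an adjusted p of at most 0.05 over all probe sets. Rel and Bcl3 lie farthest to the left, the 5 Nfkbia probe sets lie right of 0, and for Rela, Nfkb2 and Relb the symbols fill and the bars shorten without that array.

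Set side by side, the canonical genes measured here spanned the whole range of the subunits. The log2 fold change was -3.06 for Rel and -0.44 for Rela, with Nfkb2 (-0.96) and Relb (-0.62) between them. To compare subunits with most of the scale of a probe set removed, the log2 difference of a pair was taken within each array and compared between groups. Relb minus Rel was 3.05, 3.08 and 2.77 on the plasma cell arrays and 0.99, 0.41 and 0.18 on the B cell arrays. The groups did not overlap, and the difference between their means was 2.44 (exact two-sided permutation test p = 0.1, the smallest that 3 arrays against 3 allow, 0.15 adjusted over 3 pairs). Rel minus Rela was -4.40, -4.49 and -4.32 on the plasma cell arrays and -2.12, -1.61 and -1.60 on the B cell arrays, again without overlap (difference -2.63, exact permutation p = 0.1, adjusted 0.15). The mean Relb minus Rela was -1.43 ± 0.10 on plasma cell arrays and -1.25 ± 0.15 on B cell arrays (SD, n = 3 each), and these overlapped (difference -0.19, exact permutation p = 0.3, adjusted 0.3). Leaving out B cell array 1, the 3 differences were 2.67, -2.80 and -0.13, in the order given. The exact test of 3 arrays against 3 cannot go below 0.1, so it could not call any pair.

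**Figure D3:**
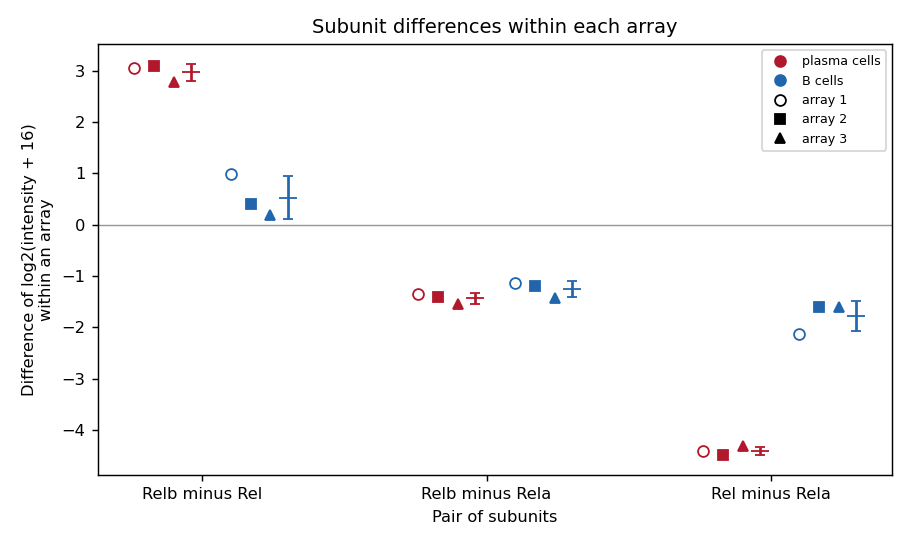
Difference of log2(intensity + 16) between 2 subunit genes within each array, plasma cells in red and B cells in blue, with the group mean and SD to the right of the symbols. The groups are well apart for Relb minus Rel and Rel minus Rela, and overlap for Relb minus Rela. The height of a pair has no meaning of its own because probe sets differ in brightness. The comparison is between groups.

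Of the 3 cytoplasmic inhibitor genes, 1 was called lower (Nfkbie), 0 were called higher and 2 were not called. Nfkbia encodes IκBα, which retains canonical dimers and is quickly remade by them. Its brightest probe set was at 13908, 12843 and 14379 in plasma cells and at 10493, 12076 and 12997 in B cells. Those groups overlapped, and the log2 fold change of 0.21 ± 0.13 (SE, adjusted p = 0.292, limma) did not pass the test. Without B cell array 1 it was 0.13 ± 0.10, with adjusted p = 0.348. The gene was not called under any of the 16 alternatives run, with limma adjusted p from 0.0906 to 0.626. All 5 Nfkbia probe sets had a positive log2 fold change, 0 of 5 passed the test over all probe sets, and the size ran against brightness: 0.21, 0.28, 0.36, 0.54 and 0.65 from the brightest to the dimmest. The dimmest was at 6107, 6059 and 6831 in plasma cells and at 2861, 4646 and 4913 in B cells, without overlap (adjusted p = 0.0984), and without B cell array 1 it was 0.40 ± 0.11 with adjusted p = 0.0383. The brightest probe set lay at 40.7% to 54.8% of the highest intensity of its array and the dimmest at 11.1% to 26.0%, and whether the top of the scale compresses the brighter ones was not tested. With limma's trended and robust variance, 4 Nfkbia probe sets were called higher.

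Nfkbie encodes IκBε, an inhibitor prominent in B cells. It was at 3009, 3001 and 3223 in plasma cells and at 3825, 4988 and 5124 in B cells, without overlap. Nfkbie fell by 0.58 (SE 0.15, adjusted p = 0.0355, limma). Leaving out any 1 array other than B cell array 1 ended the call, with adjusted p between 0.0833 and 0.121, and so did the use of its other probe set (log2 fold change -0.39, adjusted p = 0.0646). Median centring (limma, adjusted p = 0.320) and the replicate block (0.0767) ended it as well. Without B cell array 1 the value was -0.71 ± 0.08, with adjusted p = 0.00249.

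Nfkbib encodes IκBβ, an inhibitor that is lost and remade more slowly than IκBα. It was at 1528, 1485 and 1519 in plasma cells and at 1284, 2284 and 2340 in B cells. B cell array 1 lay under every plasma cell array and the other B cell arrays lay above them, so no direction held over the group. The log2 fold change was -0.33 ± 0.25 (SE, adjusted p = 0.385, limma) and, without that array, -0.61 ± 0.08 with adjusted p = 0.00324. Its second probe set was dim, at 78.7, 70.6 and 117 in plasma cells and 40.3, 108 and 87.5 in B cells, where it was over background on 2 of 3 arrays, and gave 0.20 ± 0.34 in the fit over all probe sets (adjusted p = 0.706), which is the value of the gene where probe sets with the suffix x or s are left out.

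Bcl3 and Nfkbiz encode nuclear IκB proteins, which bind p50 or p52 dimers at DNA and modulate their targets. Bcl3 was at 327, 421 and 306 in plasma cells and at 876, 1446 and 1481 in B cells. Every plasma cell array was below every B cell array. Bcl3 fell by 1.78 (SE 0.25, 3.43-fold, adjusted p = 0.00333, limma), and without B cell array 1 its log2 fold change was -2.02 ± 0.16 (adjusted p = 0.000681). The call held under the 16 alternatives run, with adjusted p up to 0.0204.

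Nfkbiz encodes IκBζ, an inducible protein needed for a set of secondary response genes. Its brightest probe set was at 5274, 3728 and 4605 in plasma cells and at 3370, 3306 and 3669 in B cells. All plasma cell arrays were higher but spread widely, and the log2 fold change of 0.38 ± 0.16 (SE, adjusted p = 0.140, limma) was not called. Leaving out B cell array 1 gave 0.37 ± 0.17 (adjusted p = 0.155, limma). Its second probe set was at 1306, 1259 and 2968 in plasma cells and at 1900, 1759 and 1831 in B cells, where plasma cell array 3 alone lay above the B cell arrays. The third gave 328 ± 82.9 in plasma cells and 372 ± 112 in B cells (SD, n = 3). The 3 probe sets differed in sign, at 0.38, -0.11 and -0.15, and no direction is given for the gene.

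On B cell array 1 each of the 9 members was lower than the mean of B cell arrays 2 and 3. The log2 difference was -1.17 for Rel, -1.14 for Nfkb2, -0.84 for Nfkbib, -0.73 for Bcl3, -0.65 for Rela, -0.48 for Relb, -0.40 for Nfkbie, -0.26 for Nfkbia and -0.05 for Nfkbiz. The median over all genes was -0.01, and 2.64% of genes were lower on that array than Rel by this measure. Arrays 2 and 3 differed from each other by at most 0.15 in size for these genes. The part that other cells or sex on array 1 had in this was not tested.

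The other genes of the pathway were split. Of 120 genes on 7 lists, 110 were measured, and 21 were called higher and 31 lower in plasma cells, with a median log2 fold change of -0.18 (all genes -0.06). Of all genes 17.6% were called higher and 12.3% lower, against which each count below is to be read. Leaving out B cell array 1 gave 23 higher and 45 lower, median -0.22, where 22.7% and 21.1% of all genes were called. All 30 list genes named below kept their direction and their call without it, and their log2 fold changes moved by at most 0.34. The lists overlap: 6 genes stand on more than 1 of them, Tnfaip3, Birc3, Cd40, Traf1, Zc3h12a and Tnip1.

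Among receptors that feed NF-κB, 4 of 16 rose and 5 fell (median -0.07). Leaving out B cell array 1, 4 rose and 6 fell and the median turned to 0.09, so the list as a whole has no direction. Tnfrsf17, the APRIL and BAFF receptor BCMA, was the highest, at 8966, 8409 and 8815 in plasma cells and 38.7, 33.2 and 28.3 in B cells (log2 fold change 7.47, adjusted p = 1.71e-05, limma). It was over background on 2 of 3 B cell arrays, so the size of this rise depends on the added constant. The TNF receptor Tnfrsf1a rose by 1.88. The Toll-like receptor gene Tlr1 fell, at 27.6, 43.8 and 47.9 in plasma cells and 5944, 7701 and 7610 in B cells. Its relative Cd180 had a log2 fold change of -2.71. The costimulatory receptor gene Cd40 had -2.23, at 1369, 1184 and 1103 in plasma cells and 4223, 6734 and 6747 in B cells. These receptors were named by the size of their called changes, so their place towards the ends of the list follows from that choice.

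On the list for the route from the antigen receptor to IKK, 1 of 10 genes rose and 5 fell (median -0.49), and 1 rose and 7 fell without B cell array 1 (median -0.64). The kinase genes Prkcb and Btk fell by 1.55 and 1.35, and the paracaspase gene Malt1 fell by 0.78. Btk lost its call after median centring and without any 1 array other than B cell array 1 (adjusted p up to 0.0612), and Malt1 after median centring (0.104). The gene that rose, Tirap (by 1.14), encodes an adaptor of Toll-like receptors and does not lie on that route, although the list holds it.

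Of 12 kinase and IKK genes, 2 rose and 3 fell (median -0.17), and 2 rose and 5 fell without B cell array 1 (median -0.19). Map3k14, which encodes NIK of the alternative pathway, was at 67.5, 98.3 and 114 in plasma cells and at 281, 602 and 559 in B cells (log2 fold change -2.14, adjusted p = 0.00493, limma). The mean of all Map3k14 probe sets gave -1.39. Map3k8, a kinase held by the p105 precursor, fell by 2.60, and Ikbkb, the catalytic subunit of canonical signalling, by 1.58, at 2130, 1998 and 2217 in plasma cells and 4919, 6942 and 7424 in B cells. Genes for a kinase of each pathway were thus lower, without overlap between groups. The noncanonical IKK gene Ikbke rose by 0.71 and Map3k7, which encodes TAK1, by 0.71, and these calls ended in 6 and 5 of 16 alternatives, with adjusted p up to 0.0823 and 0.0805.

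Of the TRAF, cIAP and MyD88 adaptors, 0 of 14 rose and 5 fell (median -0.35), and 0 rose and 7 fell without B cell array 1 (median -0.53). Traf5 fell by 2.96, Irak3, an inhibitory member of its kinase family, by 2.48 and Irak2 by 1.03. For ubiquitin editing and feedback, 4 of 15 rose and 5 fell (median -0.23), and 5 rose and 7 fell without B cell array 1 (median -0.30). Tnfaip3, which encodes the deubiquitinase A20 and is a classic NF-κB target, rose by 0.52, a call lost in 9 of 16 alternatives (adjusted p = 0.0377, up to 0.158), and Rnf11, part of the A20 complex, rose by 1.45. Usp18, a protease for the ubiquitin-like ISG15, fell by 1.19. Rbck1 and Rnf31, which encode parts of the linear ubiquitin ligase, fell by 1.00 and 0.92. The call of Rbck1 ended after median centring (0.0798) and that of Rnf31 in 7 of 16 alternatives (up to 0.142).

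Of the other IκB-related and nuclear regulators, 1 of 16 rose and 2 fell (median -0.14), while 2 rose and 6 fell without B cell array 1 (median -0.24). Nfkbid, which encodes the nuclear protein IκBNS, was at 159, 220 and 439 in plasma cells and 1702, 2859 and 3137 in B cells. Every plasma cell array lay under every B cell array, and Nfkbid fell by 3.23 (SE 0.42, adjusted p = 0.00231, limma). Akirin1 rose by 0.73 and the phosphatase gene Ppp4c fell by 0.58, and both calls ended in some alternatives, with adjusted p up to 0.0840 and 0.258.

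Known NF-κB target genes were called in both directions: 10 of 33 rose and 8 fell (median -0.38). Leaving out B cell array 1, 10 rose and 11 fell, and the median was -0.11. Il10, a cytokine gene, lay within background on the 3 B cell arrays and was at least 24.97-fold higher in plasma cells (adjusted p = 4.84e-05, limma), at 771, 624 and 762 in plasma cells and 21.8, 11.2 and 11.4 in B cells. The chemokine gene Cxcl10 rose by 2.91 and Bcl2l1, which encodes the survival protein Bcl-xL, by 2.73. The log2 fold change was -5.71 for the lymphotoxin gene Lta and -5.27 for the SLAM receptor gene Slamf1. Lta was over background on 1 plasma cell array and Slamf1 on 2, so the sizes of these falls depend on the added constant. The targets as a set therefore gave no single direction.

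**Figure D4:**
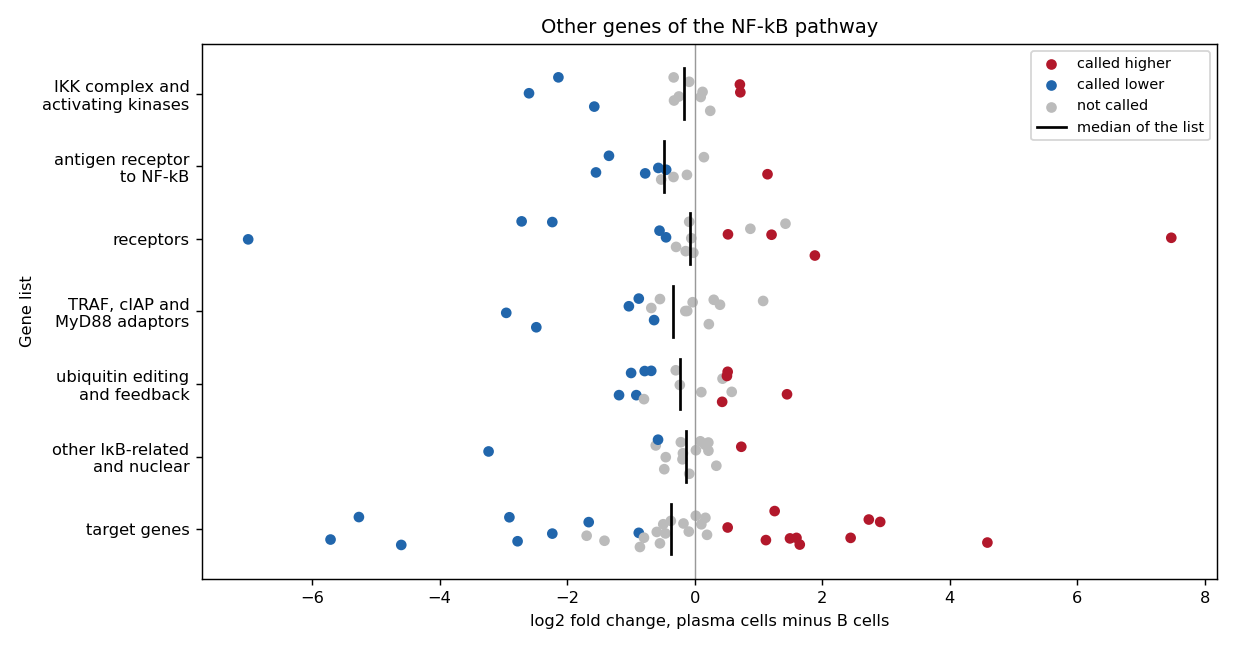
Log2 fold change, plasma cells minus B cells, of the measured genes of the 7 pathway lists. Each point is a gene, red if called higher, blue if called lower and grey if not called, and the black bar is the median of the list. Calls in both directions appear in 6 of the lists, and the adaptor list has 0 called higher and 5 called lower.

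Some genes outside the group had nearly the same profile over the 6 arrays as a subunit, by the smallest root mean square difference of log2 values after centring each gene on its mean, among 10710 genes over background on all arrays. For Rel these were Ankrd37 (0.13) and Rin3 (0.14), for Rela Csnk1g2 (0.04) and Nkrf (0.04), for Nfkb2 Cactin (0.08) and Unc13d (0.09), and for Relb Osbpl7 (0.03) and Bcl7b (0.04). The likeness covers the position of B cell array 1 as well as the difference between groups.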

How the data were processed

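The authors deposited 1 intensity per probe set and array, on a linear scale. Their summarisation, background correction and normalization were not given in the sources used. Per the labels' protocols, RNA was extracted with the Ambion RNAqueous Micro kit, then amplified and labelled with biotin using NuGEN Ovation V2. The upper quartile of the 6 arrays lay between 625 and 684.

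Symbols came from the platform annotation, updated through Entrez identifiers to RefSeq (GRCm38.p6, 34741 of 34945 matched). 64 control probe sets were left out, as were 932 with several symbols from the gene table. Values were transformed as log2(intensity + 16), so changes of dim genes are understated. A gene was read from the probe set with the highest mean log2 value. limma 3.58.1 in R 4.3.3 (lmFit, eBayes) compared 3 plasma cell with 3 B cell arrays over all 18193 genes and, separately, all 45037 probe sets, and was tested on simulated data. The number of arrays limits the precision. Signal at or below the 95th percentile of 27 bacterial control probe sets counted as background; for a gene there on all arrays of a group the fold is a bound, with the dim group set to that percentile. Alternatives varied the constant, normalization, probe set choice, filter, weights, variance model, block and arrays. Members, lists and settings were chosen with earlier results of these data known. Named list genes were up to 3 called genes in the main direction and 2 in the other, by size.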

Additional observations from a re-analysis of the deposited data

How the results depend on the processing

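Under the 16 alternatives, Rel and Bcl3 kept their calls and direction, and no called value reversed. Of the 30 named pathway genes, 21 were called under every alternative. Median centring, which moved the median of all genes by 0.12, left 2 members, 18 pathway genes and 1243 genes lower. The added constant of 64 gave 1 member probe set higher and 5 lower, where the main counts were 0 and 3, and leaving out dim features gave 5 lower. Array weights gave 1 member higher (Nfkbiz, adjusted p = 0.0423) and 7 lower, 3 member probe sets higher and 9 lower, 48 pathway genes lower, and 4840 genes higher and 4654 lower. Trended and robust variance gave 4 member probe sets higher and 6 lower. Leaving out each array in turn gave 2 to 7 members lower and 0 higher, 0 to 2 member probe sets higher and 2 to 9 lower, 11 to 23 pathway genes higher and 22 to 45 lower, and 2224 to 4121 genes higher and 1347 to 3830 lower. The members lower were 7 without B cell array 1 and 2 without any other array. Fewer arrays were fitted there; otherwise the cause was not tested. With the replicate block, 2 members were lower. Deviations of arrays of the same number had correlations of 0.00 to 0.05, and those of other pairs -0.05 to 0.03. With 3 arrays per group these values cannot decide whether the numbers pair the arrays. The comparison of Nfkb2 with Nfkb1 was not run. Signal over background does not limit the 9 brightest member probe sets, all over background on the 6 arrays.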
